A study of Mus musculus with 8 samples.

Results

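Bmf and the Bcl2 family were followed in mouse aortic smooth muscle cells (AoSMCs) given the moR-21 mimetic. The members were 10 genes, Bmf, Bcl2, Bcl2l1, Bcl2l2, Bcl2l11, Mcl1, Bax, Bak1, Bad and Bid, and every probe carrying 1 of these symbols in the deposited table was taken. This gave 19 probes for 10 of the 18138 gene symbols on the array, among 25697 probes in all. Primary AoSMCs, grown out of explants of several mouse aortas, were transfected with the scrambled control or with the moR-21 mimetic, each at 5 nM, and total RNA was taken after 48 h. There were 3 control and 3 moR-21 samples. The 6 samples filled 8 Illumina BeadChip arrays, since control sample 1 and moR-21 sample 3 had an array A and an array B each. No untransfected cells and no miR-21 mimetic were among these samples, and the age and sex of the mice are not given in the sources used here. It is also not given whether the 3 samples of a treatment came from separate cell isolations, so the p-values below measure only the spread between these samples.

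The Bcl2 family decides whether the outer membrane of the mitochondrion stays intact. Bcl2, Bcl2l1 (Bcl-xL), Bcl2l2 (Bcl-w) and Mcl1 are the guardians of the family, which hold back the pore-forming effectors Bax and Bak1. Bmf, Bcl2l11 (Bim), Bad and Bid belong to the BH3-only proteins, which bind the guardians, or the effectors directly, and promote cell death. Bmf is known for being held on the actin cytoskeleton through myosin V motors and a dynein light chain, and smooth muscle cells are rich in actin filaments. Loss of smooth muscle cells by apoptosis is part of the remodelling of injured arteries.

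The agent given to the cells is the labelled difference between the groups, so part of the precursor it comes from is shown here. A moR is a small RNA from the stretch next to a microRNA in its precursor. The 5′ end of the Mir21a hairpin, up to the first base of miR-21a-5p, and the mature microRNA are given 5′ to 3′ from RefSeq (GRCm38.p6, minus strand). In the hairpin the capitals mark GUACC, the bases common to the leading seed windows studied for moR-21. In miR-21a-5p the capitals mark the seed, bases 2 to 8.
Mir21a hairpin before miR-21a-5p, chr11:86584142-86584158: uGUACCaccuugucgga
mmu-miR-21a-5p, chr11:86584120-86584141: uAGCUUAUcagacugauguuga
The letters of the miR-21a-5p seed do not occur in this stretch of the hairpin. By the seed windows of the study, GUACC lies further in from the 5′ end of moR-21 than in this stretch. The stretch is therefore not the mimetic itself, which starts upstream of it. The full sequence of the mimetic is not given in the sources used here, and whether Bmf mRNA carries a matching site was not analysed here.

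The values below are log2 signals after quantile normalization of the 8 arrays, with the arrays of a sample averaged, and a difference is moR-21 minus control on that scale. A probe was tested where its detection p-value, which compares it with negative control beads, was under 0.01 on at least 1 array, as it was for 11651 probes. It was called changed at a fold change over 1.3 (0.379 on the log2 scale) with an adjusted p under 0.002, the cutoffs named by the study, and "rose" and "fell" are used only of called probes. Of the 19 member probes, 17 were tested, 11 were detected on all 8 arrays, and 2 were detected on none. Median intensity was 102.5 to 109.2 on control arrays and 103.5 to 106.7 on moR-21 arrays, and 10285 to 10512 probes were detected per array. Repeat arrays of a sample differed by a median of 0.0573 (control sample 1) and 0.0641 (moR-21 sample 3) over the tested probes.

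The labelled cell type was checked against fixed markers. Of 10 smooth muscle genes, 7 were detected, among them Acta2, which rose by 0.40, while Myh11, Cnn1 and Myocd were detected on no array. Of 8 endothelial genes only Vwf was detected, and Pecam1 and Cdh5 were not, although the descriptions of the samples name AoECs where their source names AoSMCs. Among the other smooth muscle genes, Des had a difference of −0.38 and Tagln of 0.20, neither called, and Smtn, Lmod1, Tpm2 and Cald1 lay between −0.05 and 0.05. Tagln (mean 6.74 in control) and Lmod1 (6.79) were dimmer than Vwf (6.89), and so were also near the limit of detection. All 5 fibroblast genes were detected, of which Lum fell by 0.56 and Thy1 rose by 0.53, while Pdgfra, Dcn and Col1a1 were between −0.22 and −0.17 without a call. The summed signal of a marker list was 10630 to 10990 in control and 13400 to 14270 in moR-21 samples for smooth muscle genes, carried by Acta2. It was 117.1 to 120.2 and 118.5 to 126.5 for Vwf, and 17470 to 18170 and 15090 to 15930 for fibroblast genes. It was 770.9 to 779.6 in control and 402.4 to 415.7 in moR-21 samples for the mesothelial genes, where Upk3b (−1.24) and Krt19 were detected and Msln and Lrrn4 were not. For the macrophage genes it was 451.2 to 483.9 and 614.7 to 666.2, carried by Lyz (0.58). Csf1r, the other one detected, gave −0.01, and Ptprc, Emr1, Cd68 and Itgam were undetected. Vwf, at the limit of detection, overlapped between the groups (0.06, limma adjusted p = 0.383). The sums of the other 4 lists did not overlap, and their part in the results below was not tested. In a culture, fewer cells of a type and less RNA per cell cannot be told apart.

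Bmf fell. It lies on chromosome 2 (chr2:118528757-118549686 of GRCm38.p6) and was read by a single probe, ILMN_2497190, detected on all 8 arrays. As deposited, its intensity was 264.1 and 253.6 on control arrays 1A and 1B, 223.9 in control sample 2 and 249.7 in control sample 3. It was 156.0 and 146.6 in moR-21 samples 1 and 2, and 145.0 and 140.6 on moR-21 arrays 3A and 3B. After normalization the control samples were at 7.94, 7.91 and 7.99, and the moR-21 samples at 7.25, 7.23 and 7.17. Intensity was lower on each moR-21 array than on any control array, and the groups were separated by far more than the spread within either. The means were 7.95 ± 0.041 (SD, n = 3) and 7.21 ± 0.043 (SD, n = 3), a log2 difference of −0.73 (standard error 0.047, 95% interval −0.83 to −0.63, limma adjusted p = 5.41e-08), so that signal was 1.66-fold lower after moR-21. The two-sided exact permutation p for these 6 samples was 0.1, the smallest that 3 against 3 allow. Bmf had been picked by the study among predicted seed targets lower in these same samples, so its fall here is not independent evidence. Apart from the arrays, the study reported lower Bmf mRNA by RT-qPCR after the moR-21 mimetic, in independent experiments.

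The size of the fall depended on background. No background was subtracted from the values above, and Bmf was dim after moR-21. With the background read from the detection p-values (limma's neqc) its log2 difference was −1.32, a 2.50-fold fall, and with normexp correction −1.20. Under every other alternative tried it was between −0.77 and −0.70. Repeat array 1B of control sample 1 gave a log2 signal 0.19 below array 1A, against a gap of 0.01 between arrays 3A and 3B of moR-21 sample 3. Ranked from the largest fall, the Bmf probe stood at 86 of 11651.

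**Figure D1:**
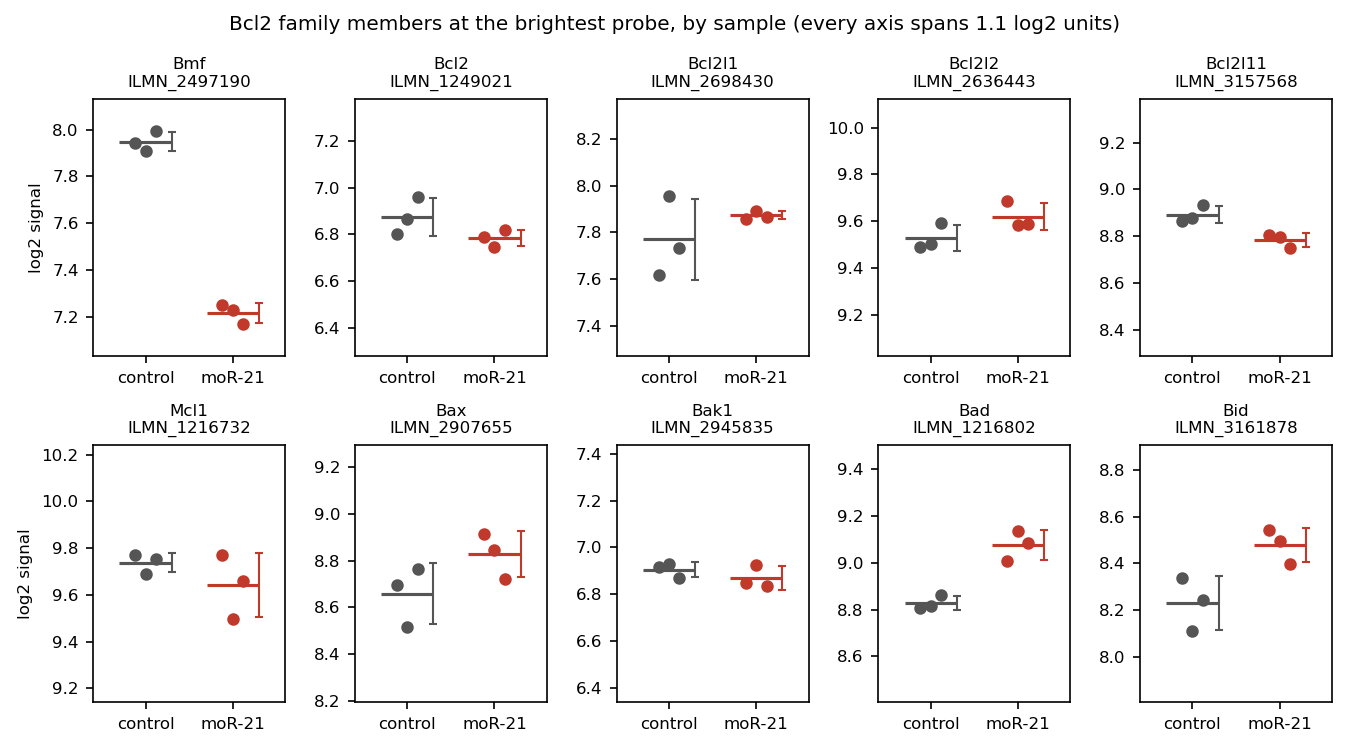
Log2 signal (y axes, all of equal span) of the brightest probe of each member in 3 control (grey) and 3 moR-21 (red) samples; points are samples 1 to 3 from left to right, lines are means and bars are SD. Bmf stands 0.73 apart, while the means of the others differ by at most 0.25.

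Bmf was the only member called. Of the 17 tested member probes, 1 was called lower and 0 higher, where 3.85% of all tested probes were called lower and 3.12% higher. Counting unadjusted limma p-values under 0.05 instead, 4 member probes were lower and 4 higher, where 19.8% of all tested probes were lower and 22.4% higher. An adjusted p under 0.05, whatever the fold, was reached by 5 of the 17, 2 lower and 3 higher, against 33.8% of all tested probes (16% lower, 17.9% higher). The control and moR-21 samples did not overlap for 7 member probes, 4 lower and 3 higher, against 45.0% of all tested probes (21.2% lower, 23.7% higher). The median difference was 0.02 over the 17 member probes and 0.005 over all tested probes. The 16 uncalled probes had differences between −0.15 and 0.25, and each of their 95% intervals lay inside the fold-change cutoff, that of Bid only just. Under the alternatives without background correction 14 to 16 of the 16 intervals lay inside it, or 9 of 10 where detection on all arrays was required. With neqc 7 of the 16 intervals, and with normexp 8, lay inside the cutoff.

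**Figure D2:**
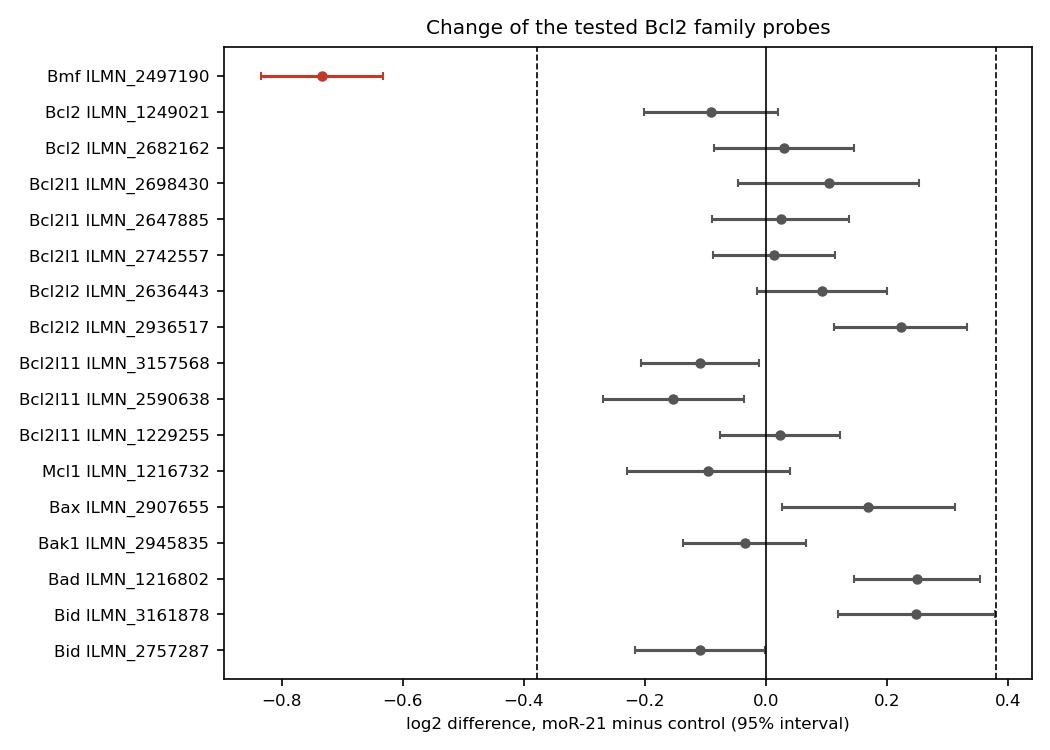
Log2 difference, moR-21 minus control, with its 95% limma interval (x axis) for the 17 tested member probes (y axis); the dashed lines mark the 1.3-fold cutoff at ±0.379 and red marks a call. The interval of Bmf, −0.83 to −0.63, lies outside the cutoff, and the other intervals lie inside it.

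Among the other BH3-only genes, Bcl2l11 was lower in its bright probes without a call. Its product, Bim, binds all the guardians and, like Bmf, a dynein light chain. The brightest probe, ILMN_3157568, was at 8.87, 8.88 and 8.93 in control samples and at 8.80, 8.80 and 8.75 in moR-21 samples. These groups did not overlap, and the difference was −0.11 (95% interval −0.21 to −0.01, limma adjusted p = 0.0827). The next probe, ILMN_2590638, was at 7.64, 7.51 and 7.62 in control samples and at 7.36, 7.51 and 7.45 in moR-21 samples. Here control sample 2 and moR-21 sample 2 all but touched, and the difference was −0.15 (limma adjusted p = 0.0422). A dim probe, ILMN_1229255, gave 0.02, and ILMN_3078327 was detected on no array. Relative to Bcl2l11 at its brightest probe, Bmf was lower by 0.62 after moR-21 than in control.

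Bad, and Bid at its bright probe, were higher without a call. Bad, whose product binds Bcl2, Bcl-xL and Bcl-w and is held inactive by phosphorylation and 14-3-3 proteins, was at 8.81, 8.81 and 8.86 in control samples and at 9.01, 9.14 and 9.09 in moR-21 samples. All moR-21 samples lay above all control samples. The difference was 0.25 (95% interval 0.14 to 0.35, limma adjusted p = 0.00118), a fold change of 1.19 that fell short of 1.3. Bid, which caspase-8 cleaves and which links death receptors to mitochondria, was at 8.34, 8.11 and 8.24 in control samples and at 8.54, 8.49 and 8.40 in moR-21 samples at probe ILMN_3161878. Control sample 1 came within 0.1 of the lowest moR-21 sample, and the groups did not overlap. The difference was 0.25 (95% interval 0.12 to 0.38, limma adjusted p = 0.0056). The second Bid probe, ILMN_2757287, ran the other way, at 6.73, 6.89 and 6.81 in control samples and at 6.70, 6.70 and 6.71 in moR-21 samples. It was detected on 1 control array and no moR-21 array, so that it sets only a bound on the level after moR-21 and no fold is given. It is counted above among the lower probes at an unadjusted limma p under 0.05 and among those whose groups did not overlap.

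Of the guardians, only a probe of Bcl2l2 kept the groups apart. At Bcl2l2 probe ILMN_2936517 the control samples were at 8.22, 8.08 and 8.19 and the moR-21 samples at 8.36, 8.36 and 8.43, a difference of 0.22 (95% interval 0.11 to 0.33, limma adjusted p = 0.00375). Its repeat arrays in control sample 1 differed by 0.23, as much as the treatments did. The brighter Bcl2l2 probe, ILMN_2636443, was at 9.49, 9.50 and 9.59 in control samples and at 9.69, 9.58 and 9.59 in moR-21 samples, which overlapped. Its difference was 0.09 (limma adjusted p = 0.182), and ILMN_2601572 was detected on no array.

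Mcl1, a short-lived guardian, was at 9.77, 9.69 and 9.75 in control samples and at 9.77, 9.50 and 9.66 in moR-21 samples. The groups overlapped, moR-21 sample 1 matching the highest control, and the difference was −0.10 (95% interval −0.23 to 0.04, limma adjusted p = 0.276). It was −0.02 without moR-21 replicate 2 and −0.16 without moR-21 replicate 1. Bcl2l1 at its brightest probe, ILMN_2698430, was at 7.62, 7.96 and 7.73 in control samples and at 7.86, 7.89 and 7.87 in moR-21 samples. Control sample 2 stood above all moR-21 samples, and the difference of 0.10 (limma adjusted p = 0.288) ran from 0.03 without control replicate 1 to 0.20 without control replicate 2. The dimmer Bcl2l1 probes gave 0.02 and 0.01.

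Bcl2, the founding guardian, was near the limit of detection. Probe ILMN_1249021 was detected on 2 control arrays and 0 moR-21 arrays, and ILMN_2682162 on 0 control arrays and 2 moR-21 arrays. The first was at 6.80, 6.86 and 6.96 in control samples and at 6.79, 6.75 and 6.82 in moR-21 samples, and the second at 6.76, 6.83 and 6.81 and at 6.92, 6.72 and 6.84. Each pair of groups overlapped, the probes differed in sign, and the limma adjusted p-values were 0.199 and 0.73. With so few arrays detecting it, no fold is given for Bcl2.

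The effectors did not pass the test. Bax was at 8.70, 8.52 and 8.77 in control samples and at 8.92, 8.85 and 8.72 in moR-21 samples. The groups overlapped through control sample 3 and moR-21 sample 3, and the difference was 0.17 (95% interval 0.03 to 0.31, limma adjusted p = 0.066). It was 0.10 without control replicate 2, and the limma adjusted p ran from 0.0238 to 0.29 over the alternatives. The repeat arrays of moR-21 sample 3 differed by 0.18 for Bax, as much as the treatments. Bak1 was dim, detected on 4 control and 3 moR-21 arrays, and was at 6.91, 6.93 and 6.87 in control samples and at 6.85, 6.93 and 6.83 in moR-21 samples, a difference of −0.04 (limma adjusted p = 0.616).

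To set the fall of Bmf against its relatives, the log2 signal of Bmf minus that of each other tested member probe was taken in every sample. After moR-21 this value was lower than in control by 0.58 (Bcl2l11 probe ILMN_2590638) to 0.98 (Bad). The groups did not overlap in any of the 16 comparisons. Each gave a two-sided exact permutation p of 0.1, the smallest possible, so no comparison could pass 0.05 at this number of samples. These comparisons share the same Bmf values and were chosen after the values were seen. Bmf alone differed by far more than any other member probe, so the lack of overlap was set by Bmf and is no further evidence.

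The members lie on 8 chromosomes. Bmf, Bcl2l11 and Bcl2l1 are all on chromosome 2, and the other members are on chromosomes 1 (Bcl2), 3 (Mcl1), 6 (Bid), 7 (Bax), 14 (Bcl2l2), 17 (Bak1) and 19 (Bad). The genes of chromosome 2 did not share a direction, with differences of −0.73, −0.11 and 0.10 at their brightest probes.

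Genes whose profile over the 6 samples was most like that of Bmf were sought among 868 genes with an SD of at least 0.2. The highest Pearson correlations were those of St3gal5 (0.999), Sspn (0.999), Csad (0.998), Sparc (0.998) and Txndc15 (0.998), all called lower. Such values are common here, since the samples share the treatment contrast, and 318 genes reached 0.95. Of the other apoptosis genes listed below, Vdac1 was most like Bmf (0.995) and Casp6 least (−0.97).

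Further members of the family gave no call. The wider Bcl2 family list, 18 symbols, had 15 on the array and 8 genes with 14 tested probes, of which 0 were called in either direction. With limma's unadjusted p under 0.05 as the threshold, 1 was lower and 3 were higher, against 19.8% and 22.4% of all tested probes. The largest difference was that of Bnip3l, a mitophagy receptor with a BH3-like motif, which was at 10.83 in each control sample and at 11.22, 10.94 and 11.10 in moR-21 samples. The difference was 0.26 (limma adjusted p = 0.00458), and the groups did not overlap. The p53-induced BH3-only genes Bbc3 (Puma) and Pmaip1 (Noxa) gave 0.04 and 0.12, and the effector Bok −0.02. Bik, Hrk and Bnip3 were on the array and not detected.

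Among direct partners and regulators, Vdac1 fell more than Bmf. Vdac1 is the main voltage-gated channel of the mitochondrial outer membrane. It was at 8.82, 8.88 and 8.93 in control samples and at 7.52, 7.49 and 7.55 in moR-21 samples. The groups were far apart, and signal was 2.56-fold lower (log2 difference −1.36, 95% interval −1.46 to −1.25, limma adjusted p = 1.55e-10). Vdac2, which holds Bak1 at the mitochondrion, and Vdac3 gave 0.05 and 0.14 without a call.

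Dynll1, the dynein light chain known to bind Bim, rose. It was at 11.02, 11.21 and 11.11 in control samples and at 11.46, 11.66 and 11.51 in moR-21 samples, a difference of 0.43 (limma adjusted p = 9.66e-05). Dynll2, the light chain known to bind Bmf, was dim and gave −0.01 (limma adjusted p = 0.951). Myo5a, the myosin V heavy chain, gave 0.16 (limma adjusted p = 0.0107). The call of Dynll1 was lost under neqc and normexp and without moR-21 replicate 2, where its difference was 0.37.

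Trp53, the p53 gene, and E2f1, a transcription factor of the cell cycle, also rose, by 0.41 and 0.38 on the log2 scale (limma adjusted p = 2.33e-05 and 4.7e-05). Trp53 was at 9.26, 9.40 and 9.38 in control samples and at 9.79, 9.75 and 9.73 in moR-21 samples, and E2f1 at 8.10, 8.12 and 8.17 and at 8.45, 8.59 and 8.49. Neither overlapped between groups, and both lay close to the fold-change cutoff. Trp53 lost its call under neqc and without control replicate 1, and E2f1 under 5 of 17 alternatives. Bag3, a co-chaperone named for its binding to Bcl2, fell by 0.43 (limma adjusted p = 4.7e-05), from 11.48, 11.49 and 11.33 to 11.07, 11.02 and 10.92. It lost its call under neqc (limma adjusted p = 0.00356).

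In all, the partner list had 33 tested probes of 24 genes, with 2 called lower and 3 higher (3.85% and 3.12% of all tested probes). Its median difference was 0.03. The count called higher was 1 without control replicate 1, and 1 without moR-21 replicate 2. The kinases that phosphorylate Bmf and Bim, Mapk8 (Jnk1) and Mapk9 (Jnk2), gave −0.18 and −0.34 (limma adjusted p = 0.0116 and 0.00103). Mapk9, the uncalled partner with the largest difference, was at 10.13, 10.09 and 10.02 in control samples and at 9.89, 9.61 and 9.74 in moR-21 samples. It was called without moR-21 replicate 1 (−0.41), while its 2 dimmer probes gave −0.10 and −0.01.

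Downstream of the mitochondrion, Casp6 rose, and most other genes had positive differences. Casp6 encodes an executioner caspase. It was at 8.38, 8.64 and 8.54 in control samples and at 9.32, 9.18 and 9.26 in moR-21 samples, a difference of 0.73 (standard error 0.064, limma adjusted p = 1.02e-06). Its second probe was called too (0.44, limma adjusted p = 9.71e-05). At the brighter probe the groups did not overlap, and without background correction the rise was 1.66-fold, the size of the Bmf fall. With neqc this probe was 1.86-fold higher and Bmf 2.50-fold lower, so the sizes were no longer equal. Of the 18 tested probes of 11 genes in this list, 2 were called higher, both of Casp6, and 0 lower (3.12% and 3.85% of all tested probes). At an adjusted p under 0.05 whatever the fold, 8 were higher and 0 lower, against the 17.9% and 16% of all tested probes given above. At an unadjusted limma p under 0.05, 11 were higher and 1 lower, against 22.4% and 19.8% of all tested probes.

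At their brightest probes 10 of these 11 genes were above 0, with a median difference of 0.18, against a median of 0.006 over all 8727 tested genes. The list had 19 symbols, 17 of them on the array. Birc3, Birc4, Birc6, Dffa and Dffb were among those on the array and not detected. Casp9 and Apaf1, which form the apoptosome, gave 0.29 and 0.22 (limma adjusted p = 5.9e-04 and 0.014). Diablo, a mitochondrial inhibitor of IAP proteins, was the exception at −0.14 (limma adjusted p = 0.0654). Birc2 gave 0.16 at its brightest probe but −0.03 and −0.09 at its dimmer probes. Cycs (0.01) and Htra2 (0.03) barely differed.

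The death receptor list gave no call among 16 tested probes of 7 genes, with 6 lower and 5 higher at an unadjusted p under 0.05 in limma (19.8% and 22.4% of all tested probes) and a median probe difference of −0.007. Fadd, the adaptor that brings caspase-8 to the receptor, had the largest difference among the genes at their brightest probes. It was at 8.45, 8.55 and 8.50 in the control samples and at 8.74, 8.85 and 8.75 in moR-21 samples, a difference of 0.29 (limma adjusted p = 4.77e-04). The groups did not overlap. Fadd probes ILMN_1223126 and ILMN_2665625 gave smaller differences, 0.18 and 0.18 (limma adjusted p = 0.00733 and 0.0134). Fas, the receptor itself, gave −0.19 (limma adjusted p = 0.00445) and Traf2 −0.23 (limma adjusted p = 0.00166). With normexp 1 probe of this list was called lower.

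**Figure D3:**
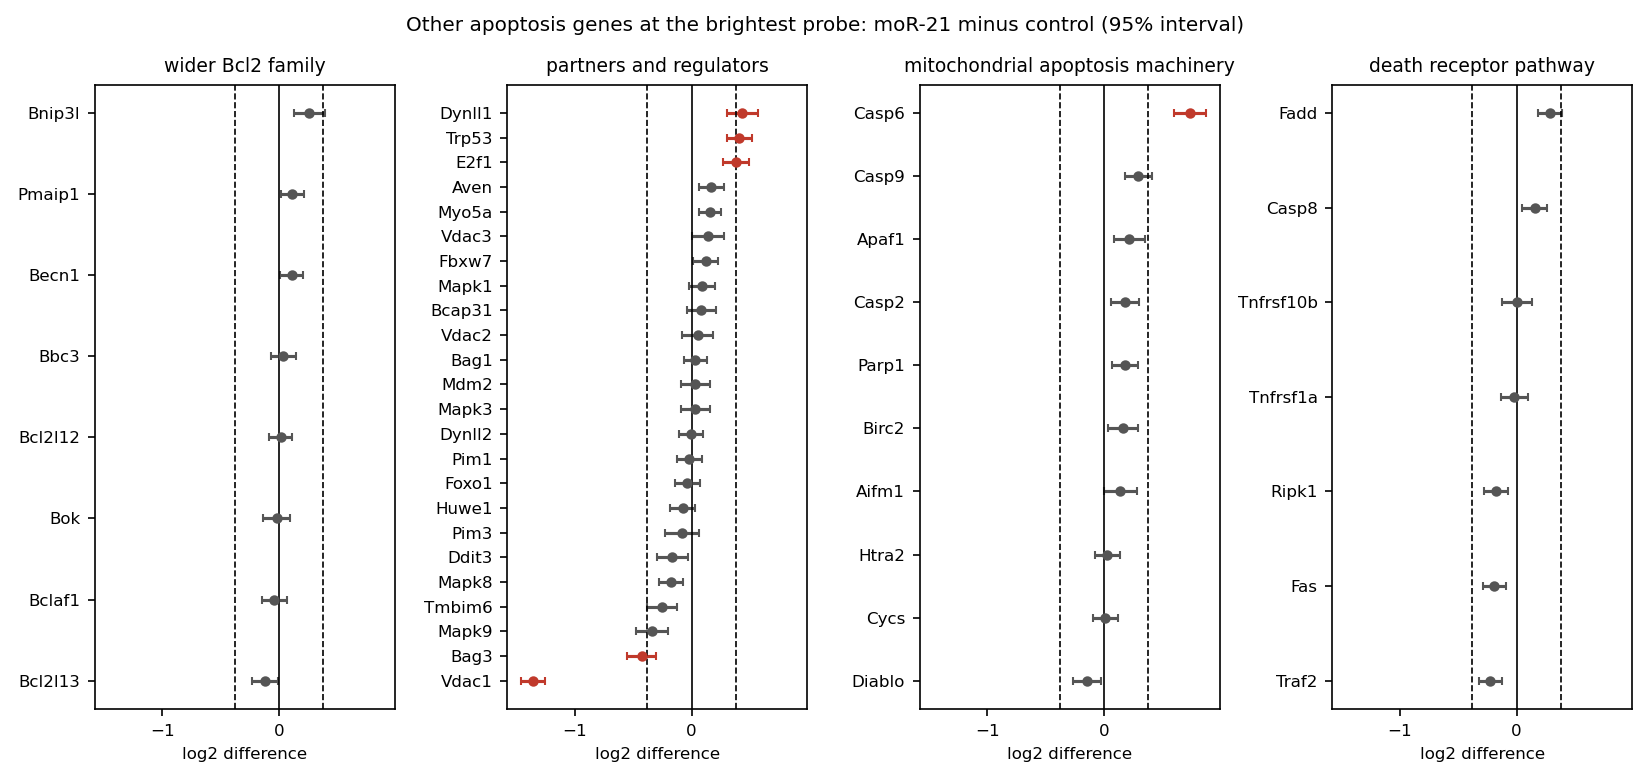
Log2 difference, moR-21 minus control, with its 95% limma interval (x axis) for genes of 4 apoptosis lists at their brightest tested probe (y axis); dashed lines mark the 1.3-fold cutoff and red marks a call. Vdac1 (−1.36) and Casp6 (0.73) stand farthest out, and of the mitochondrial apoptosis machinery genes drawn only Diablo (−0.14) lies below 0.

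**Figure D4:**
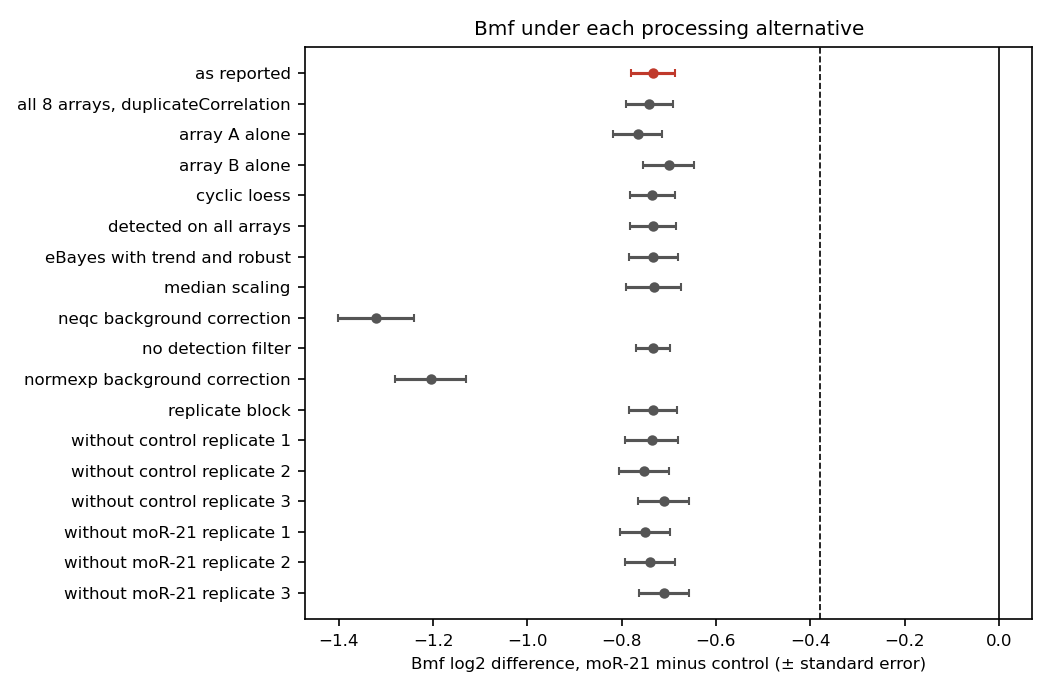
Log2 difference of Bmf, moR-21 minus control, with its standard error (x axis) as reported (red) and under 17 processing alternatives (grey, y axis); the dashed line marks the 1.3-fold cutoff. Both background corrections give larger falls, −1.32 and −1.20, and the others stay between −0.77 and −0.70.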

How the data were processed

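RNA from 6 samples was hybridized to 8 Illumina arrays; the study names BeadStudio, lumi and limma as its tools. The authors deposited non-normalized intensities, with no background correction stated, and a detection p-value for each probe and array. All 16 value columns carried a sample's name. Here, intensities were quantile normalized over 8 arrays and log2 transformed, repeat arrays were averaged, and limma 3.58.1 (lmFit, eBayes; R 4.3.3) compared treatments over 11651 probes with a detection p under 0.01 on at least 1 array, with Benjamini-Hochberg adjustment. Precision rests on 3 samples per group. Genes with several probes were read at the brightest by mean signal. Members, gene lists and tests were chosen with earlier results of these data known. From each of the 4 other apoptosis lists, up to 5 called genes and the uncalled gene with the largest difference were named, with the 5 genes most like Bmf; further genes were chosen after their values were seen. An item that the rule named is not reported here. Symbols are those of the table, and positions and sequences are from RefSeq (GRCm38.p6), where all 10 members matched by symbol. Probe sequences and binding sites were not used here. Alternatives were background correction, scaling, detection filter, repeat arrays, variance model, replicate block, each sample left out and other cutoffs.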

Additional observations from a re-analysis of the deposited data

How the results depend on the processing

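Bmf kept its call under all 17 refits (limma adjusted p 3.19e-10 to 1.12e-05), with each sample left out between −0.75 and −0.71, and 1 member probe was called lower and 0 higher in each. At an adjusted p under 0.05 with no fold cutoff, 2 member probes were called lower and 3 higher, as were 6 and 6 of the partner list, 4 and 5 of the death receptor list, 0 and 8 of the mitochondrial machinery and 0 and 1 of the wider family. Of all tested probes, 16% were lower and 17.9% higher at that threshold. A fold cutoff of 1.5 left 1 lower and 0 higher among partners and 1 higher in the machinery. With neqc 1 partner probe was called lower and 1 higher, and with normexp 1 death receptor probe lower. With each sample left out, 1 to 3 partner probes were called higher and 2 to 3 lower. Signs changed for uncalled probes near 0: Bak1 with array A alone (0.0041), Bcl2l11 ILMN_1229255 (−0.0043) and Bcl2l1 ILMN_2742557 (−0.026) with array B alone, and, leaving out a sample, Bcl2 ILMN_2682162 (−0.016 to 0.081, read near background and not as a fold), Bcl2l1 ILMN_2647885 (−0.0043 to 0.072) and ILMN_2742557 (−0.0091 to 0.046). The causes were not tested, except that neqc and normexp subtract background and so widen differences of dim probes. With the replicate block 815 probes were called, against 811, the Bmf difference was −0.73, and no call among the members changed. Same-numbered samples deviated together with correlations of 0.187, 0.0441 and 0.0597, so the numbers were not taken as pairs. Dim signal limits Bcl2, Bak1 and the second Bid probe.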
